A study of Homo sapiens with 2 samples.

Results

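The genes described here are 58 protein-coding genes of the distal long arm of chromosome 8, a chromosome end that holds the MYC oncogene. They were chosen by name from the 19607 genes of the deposited expression table, after earlier results on these libraries had shown lower reads along this stretch, and all 58 were found there. In GENCODE release 29 (GRCh38) they start between ZHX1, at chr8:123248451-123275541, and ARHGAP39, at chr8:144529179-144605816. The table holds 92 other genes that start past 123 Mb on this chromosome and 513 genes on the rest of it. RNA was sequenced from CWR22rv1, a human prostate cancer cell line, once from cells with the Akt1/2 double knockout (Akt1/2 DKO) and once from control cells, labelled wild type. In the Akt1/2 DKO cells both AKT1 and AKT2 had been targeted with CRISPR/Cas9, and the study screened monoclonal lines for the knockout, but the labels do not say which line was sequenced. The labels give no treatment or time for either library.

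MYC is a transcription factor that binds DNA with its partner MAX and drives genes of growth, ribosome production and metabolism. Gain of the chromosome arm that carries MYC is frequent in prostate cancer, and many neighbouring genes share that gain because copies are gained in long segments. A gene's RNA often follows its copy number, but its own promoter and RNA turnover can move it away from its neighbours. Copy number was not measured in these cells. The comparison asks how MYC and the genes around and beyond it stood in Akt1/2 DKO cells against the level of the whole stretch.

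The estimated reads summed, after rounding, to 9970815 for control cells and 10718634 for Akt1/2 DKO cells. With the library sizes normalized by the TMM method, an unchanged gene has 1.11 times as many reads in Akt1/2 DKO as in control. The targeted genes were lower under the knockout label: AKT1 had 2645 and 591 reads and AKT2 had 2362 and 667 reads in control and Akt1/2 DKO. Of the markers of prostate luminal cells, KRT8 had 6408 reads in control and 12815 in Akt1/2 DKO, and KLK3 had 184 and 29. Basal and endothelial markers had 2 reads or fewer in either library, the 5 immune markers summed to 5.22 and 6.53 CPM (reads scaled to the total of each library), and the 7 fibroblast markers to 104 and 22.4 CPM. Most of the fibroblast difference came from VIM, with 897 and 84 reads. COL3A1 was also lower, with 74 and 9 reads, while COL1A1, with 55 and 106, and LUM, with 5 and 35, were higher. The part of these markers in the values below was not tested. Each group has 1 library, so no value has a replicate error and no p-value is given. The intervals are exact 95% intervals (Clopper-Pearson) for counting error only, and an effect of the knockout cannot be told apart from a difference between a cloned line and the control cells.

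Most of the genes were lower in Akt1/2 DKO, by a small amount. Of the 48 members with at least 50 reads in both libraries together, 40 were lower and 8 higher, against 49.6% of all 11754 such genes that were lower. Their median log2 fold change was -0.35, with quartiles of -0.55 and -0.11, while the median over all genes was 0.00. The 54 other expressed genes of the stretch had a median of -0.29, with 41 of them lower, which is close to the value of the genes picked by name. The stretch and its members were chosen on this same contrast. The values of both gene sets are thus a description, and the other genes are not an independent check of the members. Across the other chromosomes, chromosome 3 had the lowest median, -0.53, and the 21 remaining ones, X included, lay between -0.19, for chromosome 18, and 0.12.

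**Figure D1:**
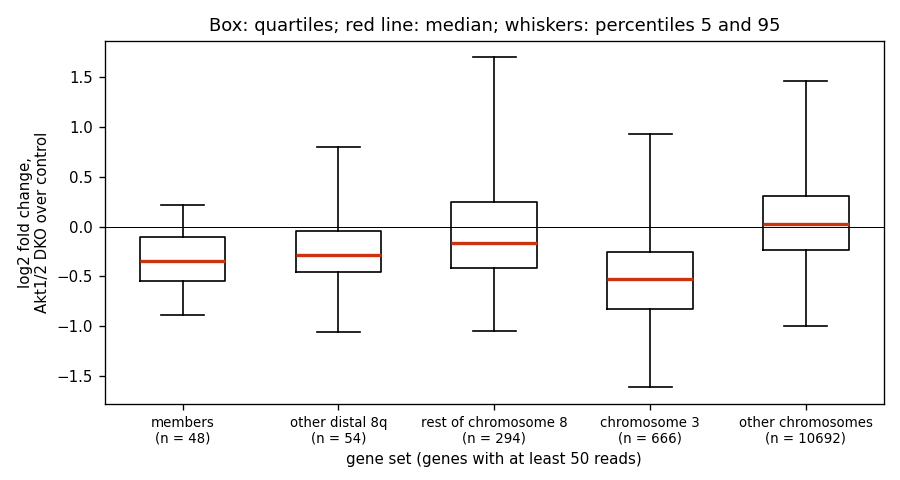
Log2 fold change of Akt1/2 DKO over control (vertical axis, normalized reads) for 5 sets of genes with at least 50 reads, with boxes for the quartiles, red lines for medians and whiskers at percentiles 5 and 95. The members (median -0.35) and the other genes of distal 8q (-0.29) sit below the rest of chromosome 8 (-0.16), and chromosome 3 (-0.53) sits lowest.

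The rest of chromosome 8 was not shifted evenly. Its 294 expressed genes outside the distal stretch had a median log2 fold change of -0.16. The first 25 Mb of the chromosome were higher, with a median of 0.13 over 64 genes. The windows from 25 to 50, 50 to 75 and 75 to 100 Mb were lower, at -0.20, -0.24 and -0.29. From 100 to 123 Mb the median over 44 genes was -0.04. The 5 expressed genes just before the stretch included SNTB1, with 1 and 397 reads, HAS2, with 1 and 72, and ZHX2, with 103 and 385, all higher in Akt1/2 DKO. The other two, MRPL13 and MTBP, had log2 fold changes of -0.13 and -0.20. At the far edge, the expressed genes past ARHGAP39 were lower, among them RPL8, a ribosomal protein gene with 19958 and 18983 reads and a log2 fold change of -0.22.

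**Figure D2:**
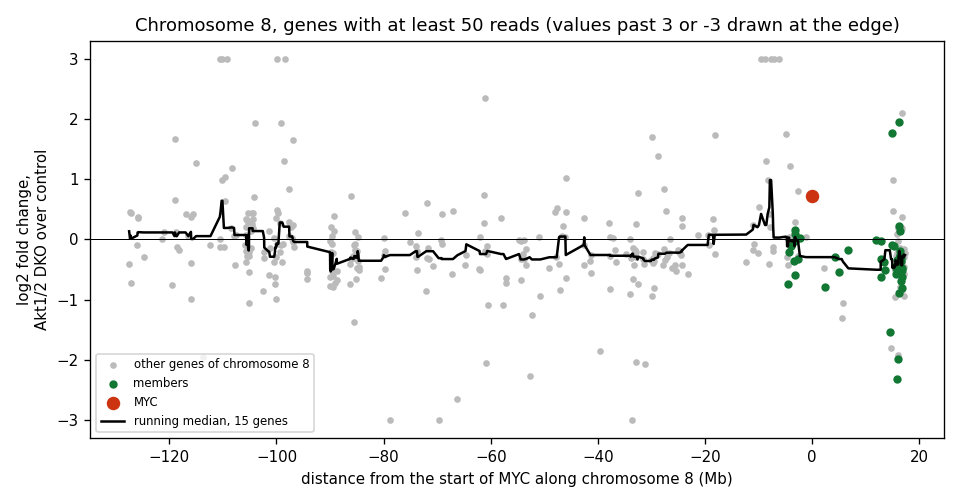
Log2 fold change (vertical axis) of chromosome 8 genes with at least 50 reads against their distance in Mb from the start of MYC, with members in green, MYC in red, other genes in grey and a running median over 15 genes as the line. The line dips below 0 in the middle of the chromosome, is near 0 along the first members (-0.03 at NSMCE2), and is at -0.27 at TRIB1 and -0.29 at MYC, where its window also takes in genes beyond MYC, while MYC itself stands at 0.73.

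The medians differed along the stretch. Before MYC, the 10 members with at least 50 reads had a median log2 fold change of -0.16, and all 19 expressed genes from 123 Mb to MYC had a median of -0.03. From MYC to 140 Mb, with MYC itself counted in both sets, the 6 members had a median of -0.24 and all 9 genes one of -0.48. From 140 Mb to GRINA, the medians were -0.40 for 20 members and -0.37 for all 36 genes. Past GRINA, up to the chromosome end, they were -0.41 for 12 members and -0.33 for all 38 genes, and 11 of the 12 members were lower. The medians beyond MYC were thus lower than those before it, with few genes in the part next to MYC. Members next to each other differed by a median of 0.33 on the log2 scale over 47 pairs, not far from the 0.39 over all 1128 pairs of members.

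MYC was higher in Akt1/2 DKO and stood above the median of the genes around it. It lies at chr8:127735434-127741434 on the plus strand and had 2556 reads in control and 4689 in Akt1/2 DKO, or 256 and 437 CPM. The level in Akt1/2 DKO was 1.65-fold higher (95% interval 1.58 to 1.74), a log2 fold change of 0.73. The 10 nearest expressed genes on each side of MYC had a joint median of -0.23. MYC stood 0.95 above this median on the log2 scale (0.88 to 1.02). These 20 genes reached 3.28 Mb before MYC but 12.8 Mb beyond it, and the level differed between the sides. The median was -0.03 over all 19 expressed genes of the stretch before MYC. From MYC to 140 Mb, with MYC itself counted, it was -0.48 over all 9 expressed genes. In FPKM, a level per transcript length, MYC went from 135 to 231 and from the third highest of the 58 genes to the highest. Among all 19607 genes it went from rank 598 to rank 298. MYC held 5.40% of the reads of the 58 genes in control and 10.5% in Akt1/2 DKO, while the genes together made up 0.475% of the control reads and 0.415% of those in Akt1/2 DKO. Its nearest expressed members on either side were TRIB1, with 488 and 549 reads and a log2 fold change of 0.02, and ASAP1, with 290 and 186 reads and one of -0.79. By their lower coordinates these 2 genes lie 2.31 and 2.32 Mb from MYC, and neither was higher by 1.5-fold. Of the expressed genes outside the members, FAM84B before MYC (0.04) and FAM49B beyond it (-0.48) lie nearer. SQLE, also before MYC, was 1.74-fold higher, with 498 and 962 reads and a log2 fold change of 0.80 (0.64 to 0.96).

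At the 1.5-fold threshold, 50 members had the 10 reads needed to be counted. Of these, 4 were at least 1.5-fold higher in Akt1/2 DKO, or 8%, against 15.9% of all 13318 genes with such reads. Another 11 were at least 1.5-fold lower, or 22%, against 15% of all genes, and 35 lay within 1.5-fold. With the FPKM of the authors in place of normalized reads the split was 5 higher and 8 lower. At 2-fold, 3 were higher and 3 lower, against 10% and 7.94% of all genes. The share of lower genes was larger than the background at 1.5-fold and smaller at 2-fold. The 4 higher genes were MYC, EPPK1, ARC and PSCA, and the 11 lower ones were GSDMD, NRBP2, TSNARE1, GRINA, ARHGAP39, ASAP1, ZHX1, HSF1, PTK2, VPS28 and MTSS1. The calls for HSF1, PTK2, VPS28 and MTSS1 depend on the measure or scaling. With FPKM, HSF1 (-0.51), PTK2 (-0.50) and MTSS1 (-0.57) were within 1.5-fold on the log2 scale and DENND3 (0.89) was counted as higher. With total count scaling MTSS1 (-0.55) and VPS28 (-0.58) were within 1.5-fold, and with upper-quartile scaling these 2 (-0.55 and -0.57) and PTK2 (-0.58). TOP1MT (-0.60) was counted as lower with TMM factors from genes outside chromosomes 3 and 8.

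**Figure D3:**
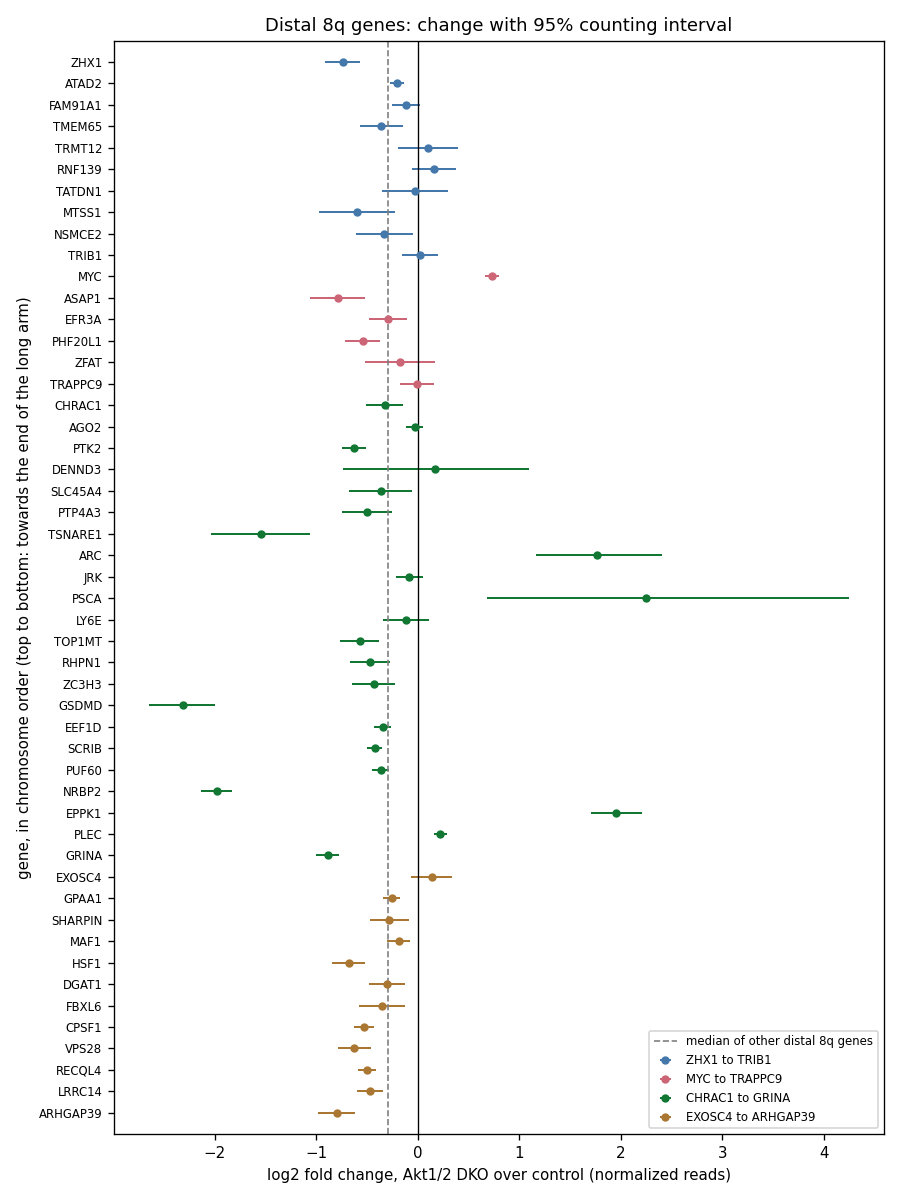
Log2 fold change of Akt1/2 DKO over control (horizontal axis) for the 50 members with at least 10 reads, in chromosome order from top to bottom, with bars for the 95% counting interval, colours for 4 parts of the stretch and a dashed line at -0.29, the median of the other genes of distal 8q. The intervals of 33 members lie below 0, 12 include it and 5 lie above it, with MYC, EPPK1, ARC and PSCA far to the right and GSDMD, NRBP2 and TSNARE1 far to the left.

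Set against the median of the other genes of the stretch, -0.29, the counting interval of 20 of the 50 members contained it. Another 14 members lay above it and 16 below it by more than counting error, and 24 were within 0.25 of it in either direction. Genes with many reads that lay close to it included EEF1D, PUF60, GPAA1 and SHARPIN. Counting error does not include the variation between cultures, so a gene outside the interval is not shown to differ from its neighbours.

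Genes of transcription and chromatin were mostly lower, with 8 of 9 members below 0 and a median log2 fold change of -0.20. Over all 50 members with at least 10 reads, 40 were below 0, against 49.6% of all genes with at least 50 reads. Whether this group or any of the following ones differs from the stretch was not tested. Apart from MYC, 2 of the 9 passed 1.5-fold, both lower, against 15% of all genes. ZHX1, a zinc finger and homeobox repressor, had 667 reads in control and 442 in Akt1/2 DKO, 1.67-fold lower (1.48 to 1.89). HSF1, the master activator of heat shock genes, had 783 and 541 reads, 1.60-fold lower (1.44 to 1.79). ATAD2, a bromodomain ATPase that works as a cofactor of MYC, had 3263 and 3139 reads and a log2 fold change of -0.20 (-0.28 to -0.13). PHF20L1, a reader of methylated lysines, had 659 and 501 reads, with a log2 fold change of -0.54. MAF1, the repressor of RNA polymerase III, had 1308 and 1271 reads, and CHRAC1, a histone-fold subunit of chromatin remodelling complexes, had 519 and 459. ZFAT, a zinc finger gene, had 146 and 143 reads and an interval that included 0. JRK, a DNA-binding protein related to a transposase, had 925 and 966 reads, with a log2 fold change of -0.09 from reads and 0.15 from FPKM, so its sign depends on the measure.

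Genes of RNA processing and translation were lower or near 0. Of 8 members, 7 had enough reads, and none passed 1.5-fold, against 15.9% of all genes higher and 15% lower. Below 0 were 5 of the 7, against 40 of all 50 members with enough reads, with a median log2 fold change of -0.35. CPSF1, a subunit of the complex that cleaves and polyadenylates transcripts, had 1995 and 1529 reads, with a log2 fold change of -0.53. EEF1D, a subunit of the translation elongation factor complex, had 2469 and 2154 reads (-0.35), and PUF60, a splicing factor that also represses MYC transcription, had 2576 and 2215 (-0.37). ZC3H3, which acts in polyadenylation and export of messenger RNA, had 403 and 330 reads (-0.44). The remaining members stood near 0. AGO2, the slicing nuclease of RNA interference, had 2066 and 2240 reads (-0.03), TRMT12, a tRNA-modifying enzyme, 179 and 212 (0.10), and EXOSC4, a subunit of the RNA exosome, 375 and 457 (0.14). The sign for AGO2 turned under total count scaling, upper-quartile scaling and FPKM.

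Genes of DNA repair and topology were below 0 in 4 of the 4 members with enough reads, against 40 of all 50 such members. None passed 1.5-fold, against 15.9% of all genes higher and 15% lower. RECQL4, a RecQ helicase, had 2411 reads in control and 1888 in Akt1/2 DKO, a log2 fold change of -0.50 (-0.59 to -0.41). TOP1MT, the mitochondrial topoisomerase, had 539 and 401 reads (-0.58), and NSMCE2, the SUMO ligase of the SMC5/6 complex, had 227 and 200 (-0.33). TATDN1, a nuclease, had 152 and 165 reads, a log2 fold change of -0.03 whose sign turned under total count scaling, upper-quartile scaling and FPKM. RECQL4 and its head-to-head neighbour LRRC14, which had 1098 and 877 reads, differed by 0.03 on the log2 scale.

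Genes of adhesion, cytoskeleton and polarity were mostly lower. Of 9 members, 4 passed 1.5-fold downwards and 1 upwards, against 15% and 15.9% of all genes. Below 0 were 7 of the 9, against 40 of all 50 members with enough reads, with a median log2 fold change of -0.50. PTK2 encodes focal adhesion kinase, which relays integrin signals, and had 1319 and 945 reads, 1.55-fold lower (1.42 to 1.68). ASAP1, an ARF GTPase-activating protein of cell motility, was 1.73-fold lower (1.43 to 2.09). ARHGAP39 had 654 and 416 reads, 1.74-fold lower (1.54 to 1.98), and MTSS1, which bends membranes and binds actin, had 142 and 104, 1.51-fold lower (1.17 to 1.97). SCRIB, a polarity scaffold with 3178 and 2622 reads, PTP4A3, a phosphatase with 317 and 248, and RHPN1 with 478 and 382, had log2 fold changes between -0.50 and -0.43.

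The 2 plakins of the stretch, proteins that link intermediate filaments, were higher. EPPK1, epiplakin, had 162 reads in control and 694 in Akt1/2 DKO, 3.86-fold higher (3.25 to 4.61). PLEC, plectin, had 3654 and 4721 reads, a log2 fold change of 0.22 (0.16 to 0.28) that did not reach 1.5-fold. The genes lie next to each other in the list, and NRBP2, the member just before EPPK1, went the other way. EPPK1 contains near-identical repeats, and how the authors counted reads that fit several of them is not given in the sources used here. The keratin KRT18, a partner of plakins in luminal cells, had 2433 and 5306 reads. It was picked after its value was seen, and a link with the plakin genes was not tested.

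Among genes of ubiquitin and kinase signalling, 1 of the 5 members with enough reads passed 1.5-fold, a lower one, against 15% of all genes. NRBP2, a pseudokinase, had 1562 reads in control and 438 in Akt1/2 DKO, 3.95-fold lower (3.55 to 4.41), and stood -1.71 from the median of its expressed neighbours on the log2 scale. SHARPIN, a subunit of the linear ubiquitin ligase, had 462 and 421 reads (-0.28), and FBXL6, an F-box protein, 345 and 300 (-0.35). RNF139, a ubiquitin ligase of the endoplasmic reticulum, had 326 and 404 reads (0.16), and TRIB1, a pseudokinase that brings substrates to a ubiquitin ligase, stood at 0.02. The values for RNF139 and TRIB1 had intervals that included 0, and the sign for TRIB1 turned when TMM factors came from genes outside chromosomes 3 and 8.

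Genes of membrane traffic, transport and lipid synthesis were below 0 in 9 of the 10 members with enough reads, against 40 of all 50 such members. Their median was -0.33, and 3 of the 10 passed 1.5-fold, all lower, against 15% of all genes. TSNARE1, which carries a vesicle fusion domain, had 134 and 51 reads, 2.91-fold lower (2.10 to 4.10). GRINA, a membrane protein related to inhibitors of cell death, had 1577 and 943 reads, 1.85-fold lower (1.71 to 2.01). VPS28, a subunit of the ESCRT machinery that sorts membrane proteins for breakdown, had 741 and 532 reads, 1.54-fold lower (1.38 to 1.73). DGAT1, the enzyme of the last step of triglyceride synthesis, had 574 and 515 reads (-0.31). TMEM65 had 413 and 357 reads, EFR3A, which anchors a lipid kinase at the plasma membrane, 502 and 454, and SLC45A4, a solute carrier, 193 and 166, with log2 fold changes between -0.37 and -0.29. FAM91A1, a Golgi trafficking protein with 844 and 865 reads, and TRAPPC9, a subunit of a vesicle tethering complex with 565 and 623, stood at -0.11 and -0.01, and the sign for TRAPPC9 turned under total count and upper-quartile scaling. DENND3, an activator of a Rab GTPase, had 20 and 25 reads, and its interval of -0.73 to 1.10 leaves the direction undetermined at this depth.

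The gasdermins form pores in membranes when cells die by pyroptosis. GSDMD, their main executor, had 441 reads in control cells and 98 in Akt1/2 DKO, 4.99-fold lower (4.0 to 6.28), the lowest value among the members with 50 reads or more. It stood -1.96 from the median of its expressed neighbours, so most of its difference is not shared by the genes around it. ZC3H3 and EEF1D, the members on either side of it, had log2 fold changes of -0.44 and -0.35. GSDMC had no read in either library.

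The LY6 genes encode small surface proteins held by a GPI anchor. PSCA, the prostate stem cell antigen, had 4 reads in control and 21 in Akt1/2 DKO, 4.74-fold higher with a wide interval of 1.60 to 19.0. LY6E had 321 and 329 reads, a log2 fold change of -0.11 with an interval that included 0, and LY6K had 2 and 4 reads. GPAA1, a subunit of the enzyme that attaches such anchors, had 2296 and 2126 reads (-0.26). ARC, an immediate early gene best known from neurons, had 29 and 109 reads, 3.39-fold higher (2.23 to 5.30). PSCA and ARC were low in both libraries, at 2.02 and 3.43 FPKM in Akt1/2 DKO.

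**Figure D4:**
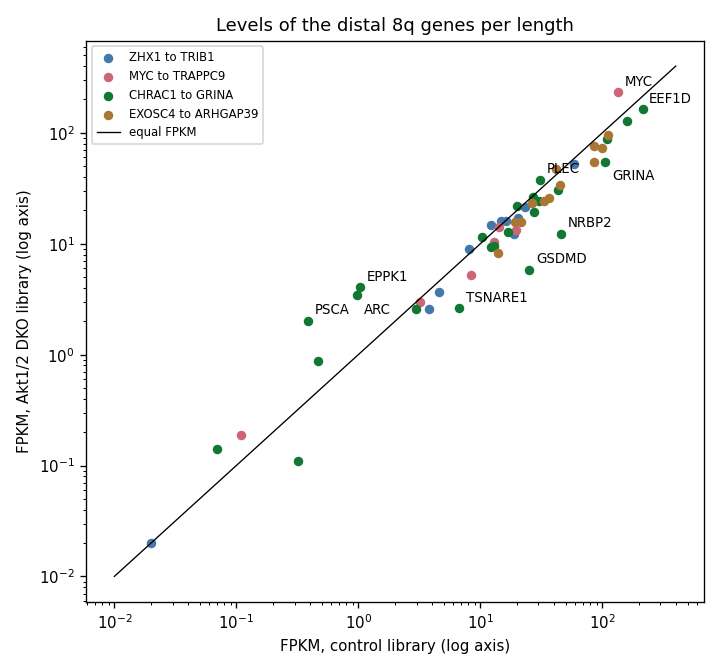
FPKM of the members in control (horizontal, log axis) and in Akt1/2 DKO (vertical, log axis), coloured by part of the stretch, for members with an FPKM above 0 in both, with a line of equal FPKM. MYC (135 and 231 FPKM) lies above the line at the high end, EPPK1, ARC and PSCA lie above it at low levels, and GSDMD, NRBP2 and TSNARE1 lie below it.

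In level per length, the 5 highest members were EEF1D (214 and 163 FPKM), MYC, PUF60 (159 and 129), GPAA1 (111 and 95.6) and SCRIB (109 and 88.8). The 4 other than MYC were lower in Akt1/2 DKO by 1.2 to 1.34-fold in normalized reads. Across the 48 members with at least 50 reads, the log2 fold change had a Spearman correlation of -0.07 with the mean FPKM and of -0.10 with the exon length, a description over genes of the same 2 libraries.

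Of the 8 members with fewer than 10 reads, 4 had none in either library, namely ANXA13, GSDMC, TMEM71 and SLA. FER1L6 had 1 and 1 reads, KHDRBS3 had 1 and 4, LY6K had 2 and 4, and PARP10 had 4 and 4. A count under 3 was set to the floor of 3 reads, or 0.301 CPM in control and 0.280 CPM in Akt1/2 DKO. A count of 0 does not show that a gene is silent. No direction is given for these genes.

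The exons of 25 members overlapped an annotated exon on the opposite strand, and 9 overlapped one on the same strand. Whether the authors counted reads by strand is not given in the sources used here, so reads of such pairs may be mixed. The pair JRK and PSCA shares 368 exon bases, of 1763 in PSCA, and JRK had far more reads than PSCA. LRRC14 shares 1699 bases with LRRC24, MTSS1 shares 677 with NDUFB9, which had a log2 fold change of 0.28, and HSF1 shares 139 with DGAT1. The genes MYC, EPPK1, ARC, GSDMD and TSNARE1 overlap no annotated exon of another gene, while NRBP2 shares 432 bases with an antisense RNA.

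Genes that MYC is known to activate were mostly a little higher. Of 36 with at least 10 reads, 27 were above 0, with a median log2 fold change of 0.18, against 0.01 over all 13318 genes. At 1.5-fold, 4 were higher, or 11.1%, below the 15.9% over all genes, and 0 were lower, against 15%. The largest were HK2, the glycolytic hexokinase, with 953 and 2227 reads (1.08), SLC7A5, an amino acid transporter, with 2129 and 4786 (1.02), and SLC16A1, a lactate transporter, with 600 and 1138 (0.77). The fourth was CAD, which starts pyrimidine synthesis, with 2213 and 3888 reads (0.66). ODC1, the polyamine enzyme long used as a marker of MYC activity, went the other way, with 6733 and 5785 reads (-0.37). 

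Genes that MYC is known to repress were mixed. Of 8, 4 were at least 1.5-fold lower and 2 higher, against 15% and 15.9% of all genes, with a median of -0.37. NDRG1, itself a gene of distal 8q, had 390 and 176 reads (-1.30), and NDRG2 on chromosome 14 had 203 and 100 (-1.17). CDKN2B, with 23 and 42 reads (0.72, interval -0.05 to 1.52), was higher by less than its counting error. CDKN1B, which encodes the cell cycle inhibitor p27, had 1492 and 2536 reads (0.62). CDKN1A, which encodes p21, went the other way, with 1273 and 911 reads (-0.63). The paper reports no significant change of p21 and p27 by quantitative PCR, with the data not shown and the compared cells not stated.

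Partners and regulators of MYC had no common direction, with a median of 0.03. At 1.5-fold, 4 of 26 were higher, or 15.4%, and 3 lower, or 11.5%, near the 15.9% and 15% of all genes. MAX, the obligate partner, had 377 and 507 reads (0.28). MXD4, a partner of MAX that opposes MYC, had 408 and 231 reads (-0.97), and MXD1, another one, had 94 and 180 (0.79). MYCL, a MYC paralog, had 25 and 61 reads (1.14), and MYCN had no read in either library. GSK3B, whose kinase marks MYC protein for breakdown, had 1715 and 1172 reads (-0.70) and lies on chromosome 3, where the median was -0.53. FBXW7, the ubiquitin ligase subunit that then recognises MYC, had 238 and 249 reads (-0.08).

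Beside the lower HSF1, the 15 genes that it is known to activate had a median of -0.24, with 3 at least 1.5-fold higher and 3 lower, against 15.9% and 15% of all genes. SERPINH1, a collagen chaperone, had 431 and 159 reads (-1.59), and HSPA4L had 363 and 810 (1.01). HSPA1A had 119 and 438 reads (1.73), but its near-identical copy HSPA1B had 4325 and 4930, so how reads were divided between these 2 copies is uncertain. HSP90AA1, an abundant chaperone, had 24466 and 16590 reads (-0.71). RNA does not show the activity of the MYC or HSF1 protein, and a link between these lists and the level of either gene was not tested.

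**Figure D5:**
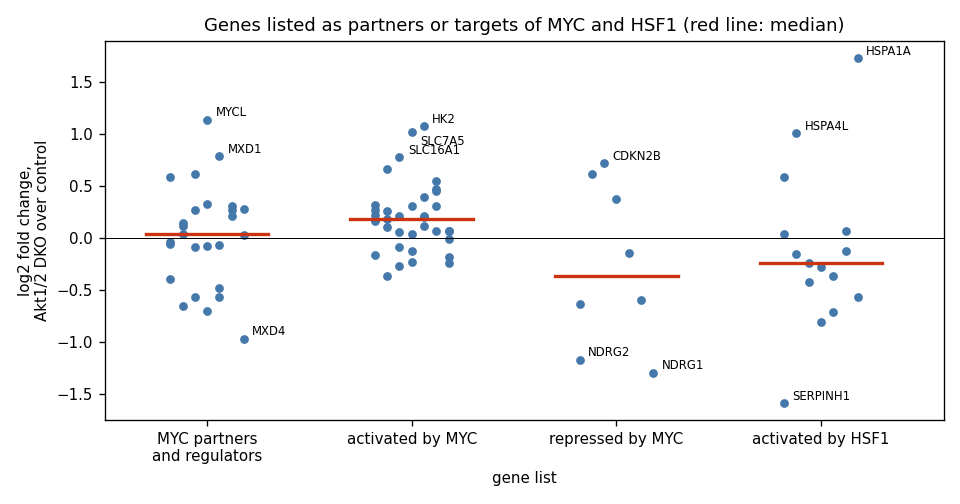
Log2 fold change of Akt1/2 DKO over control (vertical axis) for genes with at least 10 reads in 4 lists (horizontal axis), with 1 point per gene and a red line at each median. Genes activated by MYC centre on 0.18, its partners on 0.03, repressed genes on -0.37 and genes activated by HSF1 on -0.24.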

How the data were processed

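Per the labels, 1 library of Akt1/2 DKO cells and 1 of control cells were sequenced, and the submitters' processing notes name fastp 0.20.0, TopHat, Cufflinks, edgeR and GRCh38.p10 without their roles. For each gene the authors deposited an estimated count, without normalization, and an FPKM value. The columns of the authors' own comparison, which hold its p-values and fold changes, were left out. Each estimated count was rounded before use. TMM factors came from edgeR 4.0.16 (R 4.3.3) over genes with at least 10 reads in both libraries together, and DESeq2 1.42.0 gave alternative size factors. A library under 3 reads was set to 3. Folds were counted at 1.5-fold from 10 reads, and medians taken from 50 reads. Intervals were computed with scipy 1.17.1 (Python 3.11.15). Positions are those of GENCODE release 29 (GRCh38), matched by gene identifier. The steps were tested on simulated data. The stretch, its members and the lists were chosen with earlier results of these data known. All members may be named, with reads for MYC, the 10 largest rises and 10 largest falls, the ends of each part, the 5 highest FPKM and those under 10 reads; from each list, the 3 largest changes. Other genes named were chosen after their values were seen. Some marker results are not reported here.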

Additional observations from a re-analysis of the deposited data

How the results depend on the processing

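The medians of the members, of the other distal genes and of the rest of chromosome 8 kept their sign under the alternative scalings, FPKM, read filters and prior count. The counts stayed within 1.5 times of the reported ones, except that 3 members instead of 11 were lower at a 2-fold threshold, since it asks for more. The member median ranged from -0.38 to -0.30, and between 37 and 41 of 48 members were lower. MYC kept a log2 fold change of 0.70 to 0.78, and its distance from its neighbours was 1.04 with 5 genes on each side and 0.92 with 20. The alternatives for lists and single members were chosen after seeing the data. The median of MYC partners was 0.085 with upper-quartile scaling. That of genes activated by HSF1 was -0.19 with total count scaling, -0.19 with upper-quartile scaling, -0.27 with TMM outside chromosomes 3 and 8 and -0.21 with FPKM, and the cause was not tested for FPKM. Values of 7 single members moved past their counting interval with FPKM. Depth limits genes such as PSCA and DENND3. No paired analysis was possible because each group has 1 library.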
